A study of Mus musculus with 9 samples.

Results

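The ribosomal protein genes encode the protein part of the cytosolic ribosome. They were taken here as the protein-coding mouse genes named Rpl, Rps or Rplp with a number and at most 1 closing letter a, l or x. The name pattern matched 81 genes of the deposited table, and 2 of these, Rpl6l and Rps4l, are annotated as pseudogenes and were dropped. That left 79 of 47729 genes, 49 for the large subunit and 30 for the small subunit. A mean level of 3 or more on the rlog scale, a log2 scale adjusted for library depth, was reached by 76 of the 79, and these were tested. The 3 others are Rpl3l, Rpl10l and Rpl24.

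The RNA came from synovial fibroblasts, which line the joint and make its matrix, grown in culture from wild-type BALB/c mice, 3 libraries in each of 3 groups. Primed cultures came from left paws given monosodium urate (MSU) crystals, the crystals of gout, on day 0 and again on day 9. Non-primed cultures came from right paws given crystals on day 9 alone, and naive cultures came from paws with no injection. RNA was extracted on day 18 after 5 passages in culture in all 3 groups. The comparison of primed with non-primed cells asks whether an earlier bout of crystal inflammation leaves a trace in the cells, and the comparisons with naive cells ask what marks cells from an injected paw. Paw side coincides with priming and cannot be told apart from it. No label names the animal behind a library, so p-values measure only the spread between these samples, which may be technical.

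Ribosomes are built from a small subunit, which reads the messenger RNA, and a large subunit, which joins amino acids and holds the growing chain in its exit tunnel. Most of their proteins are needed in equal number, and most of their mRNAs begin with a cytosine followed by an unbroken stretch of pyrimidines, the TOP motif, through which mTOR and Larp1 control their translation together. Growing cells, fibroblasts in culture among them, devote a large share of their mRNA to these genes. An rlog value measures mRNA and not translation or protein.

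The start sites of 6 genes are shown because these genes took opposite positions in one naive library or form a pair of paralogs, and because the stretch around the start is where a TOP motif would lie. Each line gives 25 bases before the RefSeq-annotated start and 25 from it on, 5′ to 3′ on the strand of the gene, on GRCm38.p6. Capitals mark a run of at least 6 bases that opens with C, holds pyrimidines only and starts within 15 bases of the annotated start, and where a gene has several annotated starts one with a run is shown.
Rps6, chr4:86857343-86857392, minus strand: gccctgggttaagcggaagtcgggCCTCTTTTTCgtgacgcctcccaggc
Rpl19, chr11:98026899-98026948, plus strand: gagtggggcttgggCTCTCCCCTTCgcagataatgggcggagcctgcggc
Rplp2, chr7:141447626-141447675, plus strand: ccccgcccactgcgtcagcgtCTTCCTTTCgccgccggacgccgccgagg
Rps7, chr12:28635929-28635978, minus strand: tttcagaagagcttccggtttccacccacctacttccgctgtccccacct
Rps27, chr3:90213624-90213673, minus strand: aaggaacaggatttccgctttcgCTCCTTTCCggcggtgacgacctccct
Rps27l, chr9:66946061-66946110, plus strand: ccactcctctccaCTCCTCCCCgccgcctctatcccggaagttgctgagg
Rps7 has no such run in these letters, and the windows of Rpl22, Rpl23 and Rplp0, not shown, had none either. Of the 79 genes, 59 had a promoter in the RefSeq table, and 37 of the 59 (62.7%) held such a run near a start, against 7982 of 27018 genes with a promoter (29.5%). A run that begins exactly at the annotated start was found for 11 of the 59 (18.6%), against 552 of the 27018 (2.04%). The letters CCGGAAG, the core of sites for ETS family factors, stood on either strand between 250 bases before and 50 bases after the start in 24 of the 59 (40.7%), against 2683 of the 27018 (9.93%). On the reverse strand those letters read CTTCCGG and can overlap a pyrimidine run. These shares describe letters in annotated windows and not bound or used sites.

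Fibroblast markers were high on average in all 9 libraries: all 12, such as Col1a1, Vim and Pdgfra, were tested, and their mean rlog lay between 13.48 and 14.30. Single fibroblast markers differed more. Prg4 was at 8.34 in naive 3 and 10.22 to 12.01 in the other libraries. Pdgfrb was at 14.83 in naive 3 and 13.18 to 14.08 in the others. Lum ran from 12.84 in naive 1 to 15.34 in naive 2. Markers of other cell types also differed between libraries, within the naive group as well as between groups. All 14 macrophage markers were tested and none was at 0. Their mean rlog was 9.69 to 10.88 in primed, 9.95 to 10.49 in non-primed and 7.45 to 9.99 in naive libraries. Naive 2, at 9.99, lay above primed 3 and non-primed 1, while naive 1 was at 7.80 and naive 3 at 7.45. Of the 15 skeletal muscle markers 8 were tested, with a mean rlog of 4.32 to 5.73 in primed, 4.66 to 5.62 in non-primed and 4.01 to 4.25 in naive libraries. Of the 8 endothelial markers 5 were tested, with a mean of 5.99 to 6.35 in primed, 5.92 to 6.23 in non-primed and 5.37 to 6.24 in naive libraries. Among naive libraries, naive 3 stood apart: the deviation of its genes from the median of the other 8 libraries had an interquartile range of 0.527 on the log2 scale, against 0.157 to 0.428 in the others. In a mixed culture, fewer cells of a type and less RNA per cell cannot be told apart. The part of these measures in the ribosomal protein values was not tested.

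Ribosomal protein genes had some of the highest rlog values in the cultures. A mean rlog of at least 13 was reached by 49 of the 79 genes and by 431 of all 15623 genes tested, and 71 of the 79 reached 11. The top rlog values, which are not corrected for transcript length and give no order of abundance, were those of Rpl7 at 14.72, Rps3 at 14.67, Rps4x at 14.67 and Rps12 at 14.60. Rps3 helps line the channel through which mRNA enters, and Rps4x is the X-linked gene of a small-subunit protein. Per kilobase of transcript, the order led with Rps12 at 15.62 and Rps27 at 15.40, ahead of the stalk protein gene Rplp1 at 15.13 and Rpl32 at 15.04. The median per-kilobase level was 13.64 for 46 large-subunit and 13.96 for 30 small-subunit genes. The SD of these levels over the 9 libraries ran from 0.0707 for Rpl9 and 0.0873 for Rpl10, whose protein is one of the last to join the large subunit, to 0.376 for Rpl39l. Rpl26 at 0.277, Rpl41 at 0.268 and Rpl35a at 0.260 came next below Rpl39l.

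**Figure D1:**
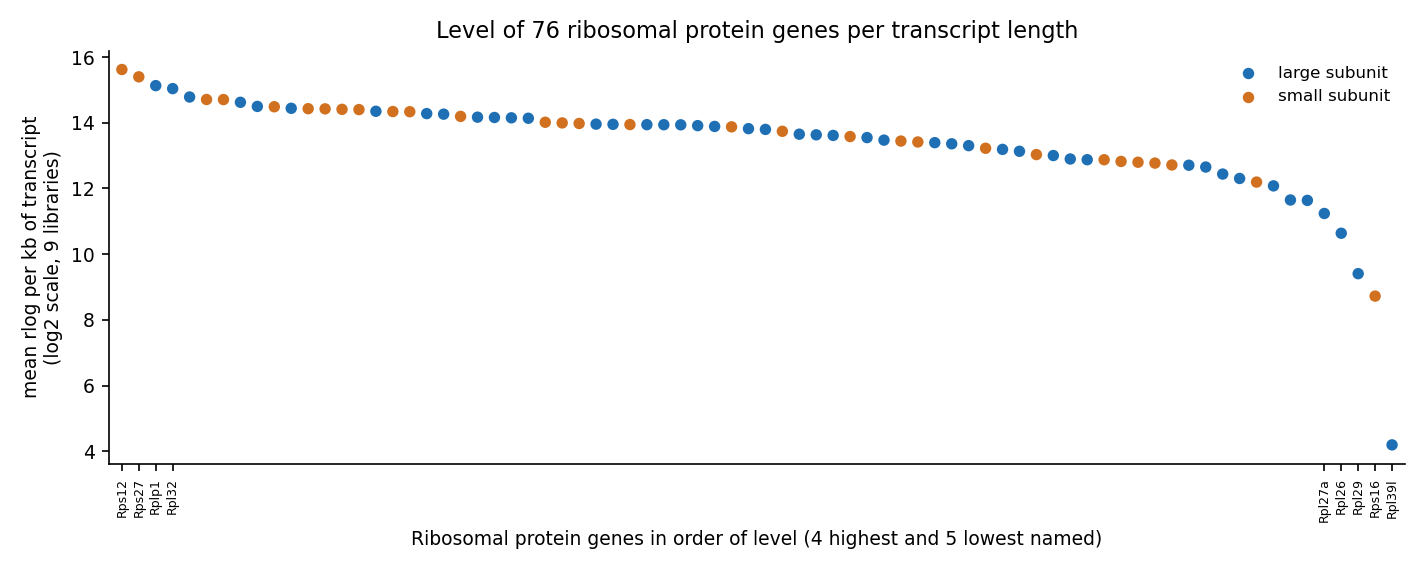
Mean rlog of 9 libraries per kilobase of transcript (vertical axis, log2 scale) for the 76 tested ribosomal protein genes in order of level, with large and small subunit genes in different colours. Most genes form a plateau with medians of 13.64 and 13.96, and Rpl39l at 4.20, Rps16 at 8.73 and Rpl29 at 9.41 lie far below it.

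Some core subunit genes lay below that plateau. Per kilobase, Rps16 had a level of 8.73, Rpl29 9.41, Rpl26 10.64 and Rpl27a 11.24. Rpl24 had a mean rlog of 3.00, just under the bound for testing, and 71.5% of its exonic bases are also exons of Gm28037 on the same strand. Near-identical copies, here annotated transcripts of another gene matching at 98% or more over at least 100 bases, were found for 67 of the 79 genes, with a median of 3 copies. Rpl29 had 10 copies and Rps16 had 1. The median per-kilobase level was 14.14 for 10 tested genes with no copy, 13.72 for 36 with 1 to 3 and 13.53 for 30 with 4 or more. Of 265 pseudogene rows named after a ribosomal protein gene, 94 were at 0 in every library and 3 averaged 6 or more on the rlog scale, led by Rpl3-ps1 at 10.39. How the counting treated reads that match several places is not given in the sources used here, so the levels of single genes with copies or overlaps are uncertain.

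Paralogs known from specialised tissues were low or listed at 0. Rpl10l, the retrogene known from testis, was listed at 0 in all 9 libraries, and Rpl3l, the form of heart and skeletal muscle, lay between -0.93 and -0.76. Rpl39l, the testis-enriched form of the exit-tunnel protein gene Rpl39, had rlog values of 2.95, 3.74 and 3.44 in primed, 3.39, 3.63 and 3.70 in non-primed and 3.53, 2.85 and 2.78 in naive libraries. Its groups overlapped, and Rpl39 itself averaged 12.42. Rps27l, a p53 target gene, had values of 11.86, 11.55 and 11.77 in primed, 11.75, 11.64 and 11.92 in non-primed and 11.89, 11.57 and 11.47 in naive libraries. Per kilobase it lay at 12.72, against 15.40 for Rps27, and neither gene separated the groups. Rpl7l1, a relative of Rpl7, averaged 11.57, with 11.49 to 11.70 over all libraries.

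Rpl22l1, which lies outside the name pattern and encodes a paralog that can replace Rpl22 in the ribosome, did not overlap between the injected groups. Its rlog values were 10.60, 10.35 and 10.56 in primed, 10.87, 10.80 and 10.87 in non-primed and 10.42, 10.83 and 10.75 in naive libraries. All 3 primed libraries lay below all 3 non-primed libraries, as was so for 5.25% of all genes. Naive libraries spanned nearly the whole range. The primed minus non-primed difference was -0.34 (SE 0.12), which did not pass limma's test over all genes (adjusted p = 1.00). Rpl22 differed by 0.07 (SE 0.08, adjusted p = 1.00) between the same groups.

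Most of the variation of ribosomal protein mRNAs was a shift of whole libraries, with both subunits moving together. In the 2 libraries numbered 2 from injected paws the genes were high: their median deviation from the other 8 libraries was 0.19 in primed 2 and 0.22 in non-primed 2, with 66 and 73 of the 76 genes above. Naive 2 and naive 1 were low, at medians of -0.21 and -0.14, with 74 and 68 of the 76 genes below. Primed 1 was at -0.07, primed 3 at 0.08, and non-primed 1 and 3 both at -0.02. Naive 3, at 0.11, went the other way from its fellow naive libraries. A principal component of the 76 genes held 68.0% of their variance and ran between these extremes, with scores of -1.68 for primed 2 and -1.84 for non-primed 2 at one end and 1.95 for naive 2 at the other. Mitosis genes, all 20 of them tested, had their lowest mean rlog in naive 2, at 8.07, and lay between 9.12 and 9.85 in the other libraries. Their order followed the shift only in part: non-primed 2 was highest at 9.85, but primed 2 was next to lowest at 9.12. Naive 1 was at 9.53. The mitochondrially encoded protein genes that were tested, 7 in number, had a median deviation of -0.74 in primed 2, -0.41 in non-primed 2 and 0.28 in naive 2. Transcript length moved with the shift in some libraries, without a steady order from short to long. Of the 76 transcripts, 39 are under 700 bases and 32 are of 700 to 1500. Other genes of 700 to 1500 bases had a median deviation of 0.07 in primed 2, -0.002 in non-primed 2 and -0.12 in naive 2. Genes over 4000 bases had -0.06 in primed 2, 0.01 in non-primed 2 and 0.04 in naive 2. In the same 3 libraries genes under 700 bases had 0.02, -0.03 and -0.10. Genes of 1500 to 4000 bases, the largest class, had 0.03, 0.004 and -0.09 there. The part of these measures in the shift was not tested.

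**Figure D2:**
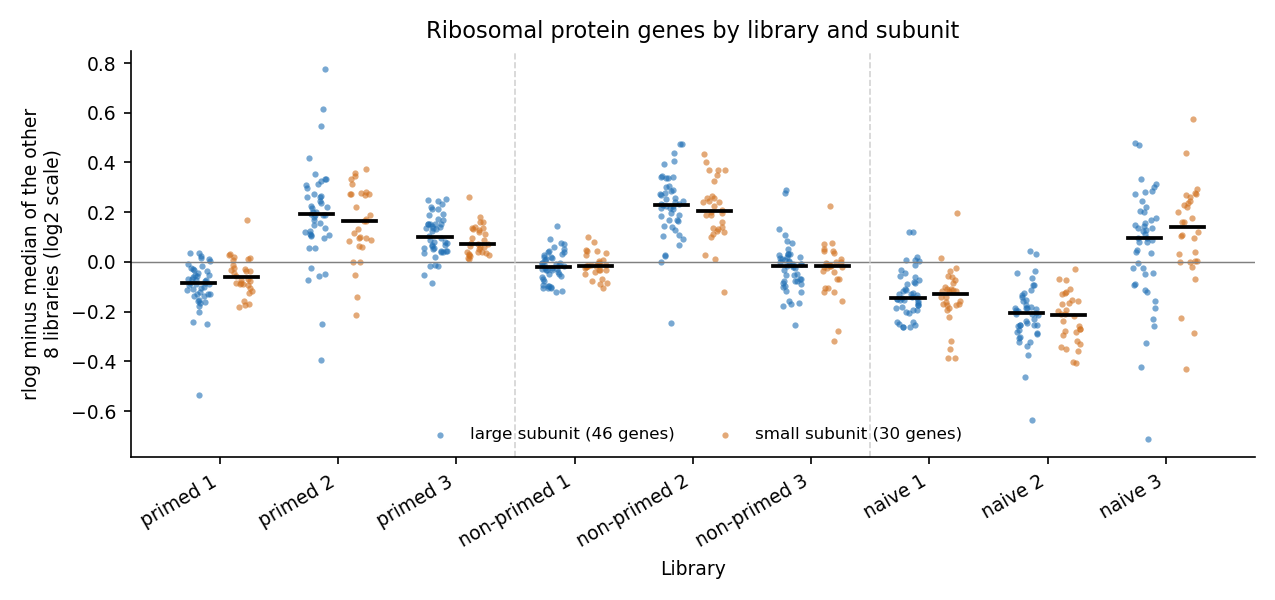
Deviation of each tested ribosomal protein gene from its median in the other 8 libraries (log2 scale) by library, large and small subunit side by side, with bars at the medians. Both subunits are high in primed 2 and non-primed 2, low in naive 1 and naive 2, and widely spread in naive 3.

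Large and small subunit genes kept step. Large-subunit genes had a mean rlog of 12.82 ± 0.12 in primed, 12.82 ± 0.12 in non-primed and 12.68 ± 0.12 in naive libraries (SD, n = 3 each). Small-subunit genes averaged 13.22 ± 0.09 in primed, 13.22 ± 0.12 in non-primed and 13.09 ± 0.16 in naive libraries. The gap of large minus small was -0.44, -0.38 and -0.39 in primed, -0.41, -0.40 and -0.39 in non-primed and -0.39, -0.39 and -0.46 in naive libraries, so that no group stood apart. These means are not corrected for length, and only their change between libraries can be read. Within naive 3, the interquartile range of the deviations of the 76 genes was 0.245, against 0.0692 to 0.176 in the other libraries, so that some ribosomal protein genes were well above and others well below.

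In naive 3 part of that spread followed chromosomes. Rps6, Rpl11 and Rpl22 lie on chromosome 4 and were low, Rps29 and Rps7 lie on chromosome 12 and were high, and other genes on those chromosomes moved the same way. Rps6, the small-subunit protein phosphorylated by S6 kinases downstream of mTOR (chr4:86854660-86857412), had rlog values of 12.59, 12.88 and 12.87 in primed, 12.69, 12.98 and 12.63 in non-primed and 12.49, 12.38 and 12.23 in naive libraries. Rpl11, which with Rpl5 and the 5S rRNA forms a particle that binds the p53 inhibitor MDM2 (chr4:136028265-136053428), had 13.07, 13.27 and 13.22 in primed, 13.04, 13.27 and 13.07 in non-primed and 12.90, 12.87 and 12.65 in naive libraries. Both genes were lowest in naive 3, and every naive value lay below every value of the injected groups.

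Rpl22, an RNA-binding protein that ribosomes can do without (chr4:152325742-152334071), had 12.92, 13.02 and 13.02 in primed, 12.90, 12.98 and 12.86 in non-primed and 12.73, 12.77 and 12.59 in naive libraries. Rpl19, a large-subunit protein gene on chromosome 11 (chr11:98026710-98030492), had 13.42, 13.77 and 13.59 in primed, 13.49, 13.72 and 13.45 in non-primed and 13.42, 13.22 and 13.21 in naive libraries. For both genes the naive libraries lay below all others with naive 3 lowest, though for Rpl19 naive 1 lay just below primed 1 and naive 3 just below naive 2. Rps20, at the other end of chromosome 4 (chr4:3831334-3835665), had 14.02, 14.18 and 14.12 in primed, 14.09, 14.35 and 14.08 in non-primed and 13.79, 13.77 and 14.36 in naive libraries, and was highest in naive 3.

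Rps29 (chr12:69157722-69159186), a small zinc-binding protein of the small subunit, had rlog values of 13.03, 12.87 and 13.03 in primed, 12.99, 13.14 and 12.995 in non-primed and 12.90, 12.94 and 13.57 in naive libraries. Rps7 (chr12:28630854-28635953), another partner of MDM2, had 13.04, 13.25 and 13.16 in primed, 13.09, 13.30 and 13.02 in non-primed and 12.95, 12.84 and 13.50 in naive libraries. Both were highest in naive 3, and elsewhere Rps7 spread more widely than Rps29, with naive 2 lowest and non-primed 2 highest. The acidic stalk proteins, which recruit elongation factors, were also high there although they lie on other chromosomes. Rplp1 had 13.92, 14.07 and 14.12 in primed, 14.13, 14.26 and 14.13 in non-primed and 13.98, 13.95 and 14.58 in naive libraries. Rplp2 had 12.30, 12.27 and 12.25 in primed, 12.35, 12.34 and 12.42 in non-primed and 12.33, 12.26 and 12.78 in naive libraries. Rplp0, the scaffold of the stalk, deviated by 0.33 in naive 3.

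**Figure D3:**
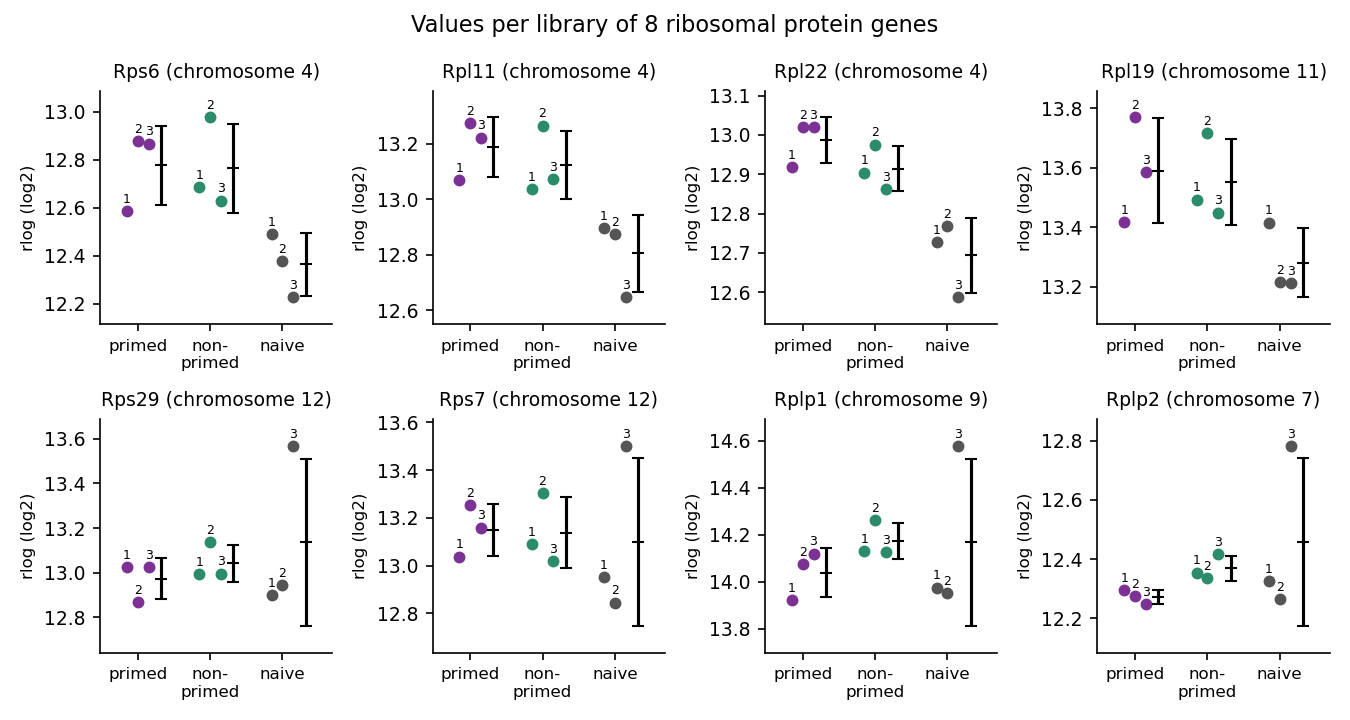
Rlog values (log2 scale) of 8 ribosomal protein genes in primed, non-primed and naive libraries, each point a library and each bar a group mean with its SD (n = 3). Rps6, Rpl11, Rpl22 and Rpl19 are lowest in naive 3 and the other genes are highest there.

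Among other genes with a mean rlog of at least 8, the median deviation in naive 3 was -0.36 over 583 genes of chromosome 4, -0.25 over 734 of chromosome 11, -0.19 over 505 of chromosome 8 and 0.28 over 323 of chromosome 12. On each of the remaining chromosomes it was 0.05 to 0.15, which is also above the other 8 libraries there. In the other 8 libraries no chromosome median left the range of -0.12 to 0.06. Over all tested genes the medians in naive 3 were -0.35, -0.27, -0.18 and 0.21 on chromosomes 4, 11, 8 and 12. On chromosomes 1, 6, 7, 16 and X those medians lay within the range of the other libraries. Chromosome 4 was low over part of its length: with a bound at 50 Mb, chosen after the values were seen, the median was 0.01 for 141 genes below it, where Rps20 lies, and -0.43 for 442 genes above it, where Rps6, Rpl11 and Rpl22 lie. Of the 7 ribosomal protein genes on chromosome 11, 6 were below the other libraries, led by Rpl19 at -0.26 and Rpl23 at -0.15. The 2 on chromosome 8 lay at -0.02 and 0.08 and were not clearly low. The 60 on the chromosomes other than 4, 8, 11 and 12 had a median of 0.14, with 11 of them below 0. They still spread widely, from -0.71 for the weakly expressed Rpl39l to 0.48 for Rplp1. DNA copy number was not measured, and nothing in the labels sets naive 3 apart. The comparisons with naive libraries are therefore given with and without naive 3.

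**Figure D4:**
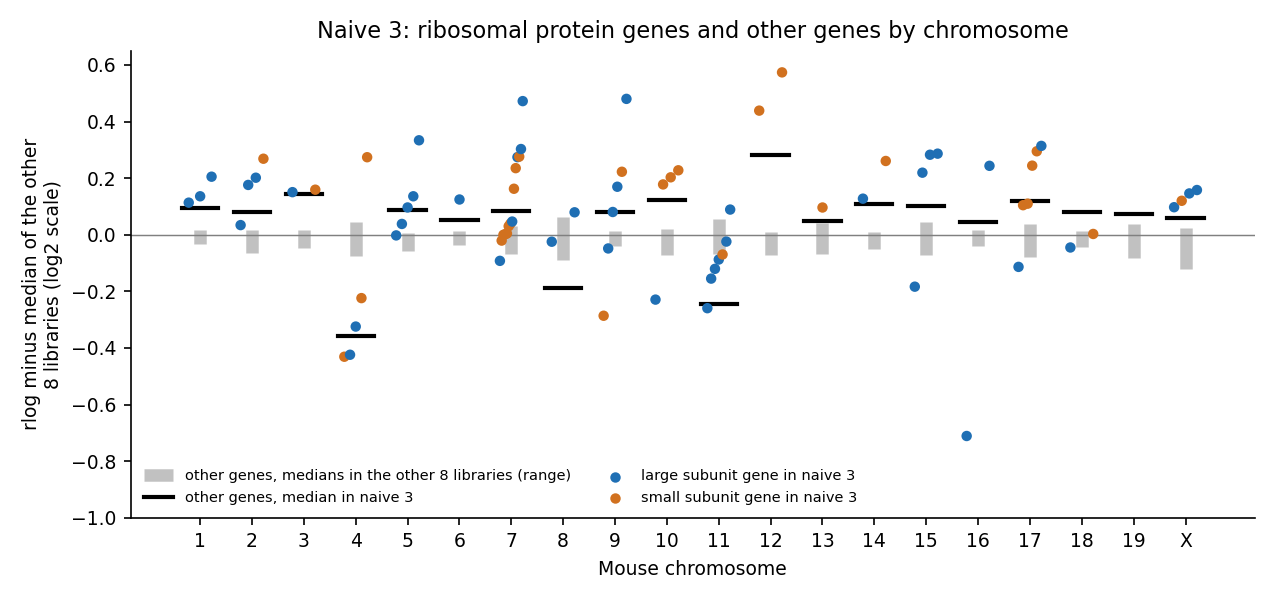
Deviation of naive 3 from the median of the other 8 libraries (log2 scale) by chromosome: points are ribosomal protein genes, black lines the medians of other genes with a mean rlog of at least 8, and grey bars the range of those medians over the other 8 libraries. For genes above this level the black lines lie outside the grey bars on every chromosome. They lie furthest on chromosomes 4, 11, 12 and 8, at -0.36, -0.25, 0.28 and -0.19, and at 0.05 to 0.15 on the others.

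Ribosomal protein genes were on balance higher in primed than in naive cultures, by about the spread between libraries, and no gene passed the test. Their mean rlog was 12.98 ± 0.11 in primed and 12.84 ± 0.14 in naive libraries (SD, n = 3 each). Of the 76 genes, 67 were higher, with a median difference of 0.15 on the log2 scale against -0.001 over all genes tested, where 49.8% were higher. Large-subunit genes had a median of 0.16, with 40 of 46 higher, and small-subunit genes 0.14, with 27 of 30 higher. limma called 0 of the 76 at an adjusted p below 0.05, where 0.102% of all genes were called, 0.096% as higher and 0.0064% as lower. The smallest adjusted p was 0.162. An unadjusted p below 0.05 was found for 5 of the 76, against 9.43% of all genes with higher and 7.43% with lower values in primed libraries. The groups did not overlap for 10 of the 76, all higher in primed libraries (13.2%), where 8.97% of all genes were higher and 8.18% lower without overlap.

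The smallest p-values among genes higher in primed cultures belonged to genes on chromosomes 4 and 11. Rpl22 differed by 0.29 (SE 0.08, adjusted p = 0.162 by limma), Rpl11 by 0.38 (SE 0.11, adjusted p = 0.163), Rps6 by 0.41 (SE 0.13, adjusted p = 0.189) and Rpl23, another partner of MDM2, by 0.27 (SE 0.09, adjusted p = 0.225). Of the 10 genes without overlap, 4 lie on chromosome 4 and 3 on chromosome 11. The median difference was 0.34 for the 4 genes above 50 Mb on chromosome 4, 0.19 for the 7 on chromosome 11 and 0.11 for the 60 on chromosomes other than 4, 8, 11 and 12. Lower in primed libraries were Rpl36 by a difference of -0.25 (SE 0.13), Rplp2 by -0.19, Rps29 by -0.16 and Rpl39 by -0.10, none past the test.

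The median difference between primed and naive cultures depended on single libraries. It was 0.21 without naive 3, with 72 of 77 genes higher, and 0.08 without naive 2, with 56 of 76 higher. Without primed 2 it was 0.10. Without naive 3, Rps26, whose protein contacts mRNA ahead of the start codon, had the smallest adjusted p of the 77 genes, at 0.104 with a difference of 0.34, while Rpl22 had 0.24 (SE 0.07, adjusted p = 0.132) and Rps6 0.34 (SE 0.13, adjusted p = 0.193). No ribosomal protein gene was called in any of the fits that left out a library. For primed against naive those fits called 0% to 2.28% of all genes, the most without naive 2, with 1.25% without naive 3. Where the share over all genes is near 0, a count of 0 says nothing particular about these genes.

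Non-primed cultures compared with naive cultures had a mean rlog over these genes of 12.97 ± 0.12, against 12.84 ± 0.14 in naive cultures (SD, n = 3 each), and the 2 comparisons share their naive libraries. Of the 76 genes, 72 were higher in non-primed libraries, with a median of 0.13 against 0.009 over all genes tested, where 51.7% were higher. The median was 0.13 for large-subunit genes, with 44 of 46 higher, and 0.14 for small-subunit genes, with 28 of 30 higher. limma called 0 of the 76 where 0.141% of all genes were called, 0.115% as higher and 0.0256% as lower. The smallest adjusted p was 0.204. An unadjusted p below 0.05 was found for 9 of the 76, against 8.58% of all genes with higher and 6.84% with lower values in non-primed libraries. For 14 of the 76 (18.4%) the groups did not overlap and non-primed libraries were higher, where 11.6% of all genes were, and for 0 of the 76 non-primed libraries were lower without overlap, where 10.3% of all genes were.

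Rps6 differed by 0.40 between non-primed and naive libraries (SE 0.13, adjusted p = 0.204 by limma), Rpl11 by 0.32 (SE 0.11, adjusted p = 0.217), Rpl22 by 0.22 (SE 0.08, adjusted p = 0.246) and Rpl23 by 0.24 (SE 0.09, adjusted p = 0.279). Rpl3, which reaches into the peptidyl transferase centre and lies on chromosome 15, differed by 0.30 (SE 0.12), and Rpl5, the partner of Rpl11, by 0.23 (SE 0.11), with overlapping groups for Rpl5. Of the 14 genes without overlap, 4 lie on chromosome 4 and 5 on chromosome 11. The 4 genes lower in non-primed libraries were Rpl36 at -0.19, Rplp2 at -0.09, Rps29 at -0.10 and Rps21 at -0.04, and the last 3 of these were higher in non-primed libraries once naive 3 was left out, by 0.07, 0.12 and 0.06.

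Without naive 3 the median difference between non-primed and naive cultures was 0.21, with 75 of 77 genes higher. It was 0.08 without naive 2, with 54 of 76 higher, and 0.05 without non-primed 2, with 56 of 76 higher. Leaving out naive 3 gave Rps26 the smallest adjusted p, at 0.0706 with a difference of 0.38 (SE 0.09), and Rps20 a difference of 0.39 (adjusted p = 0.103). Of the 77 genes 0 were called in that fit, which called 1.70% of all genes. Rps26 had 12.38, 12.60 and 12.56 in primed, 12.55, 12.65 and 12.48 in non-primed and 12.20, 12.15 and 12.72 in naive libraries, so that naive 3 lay above every injected library and the other 2 naive libraries below every one.

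**Figure D5:**
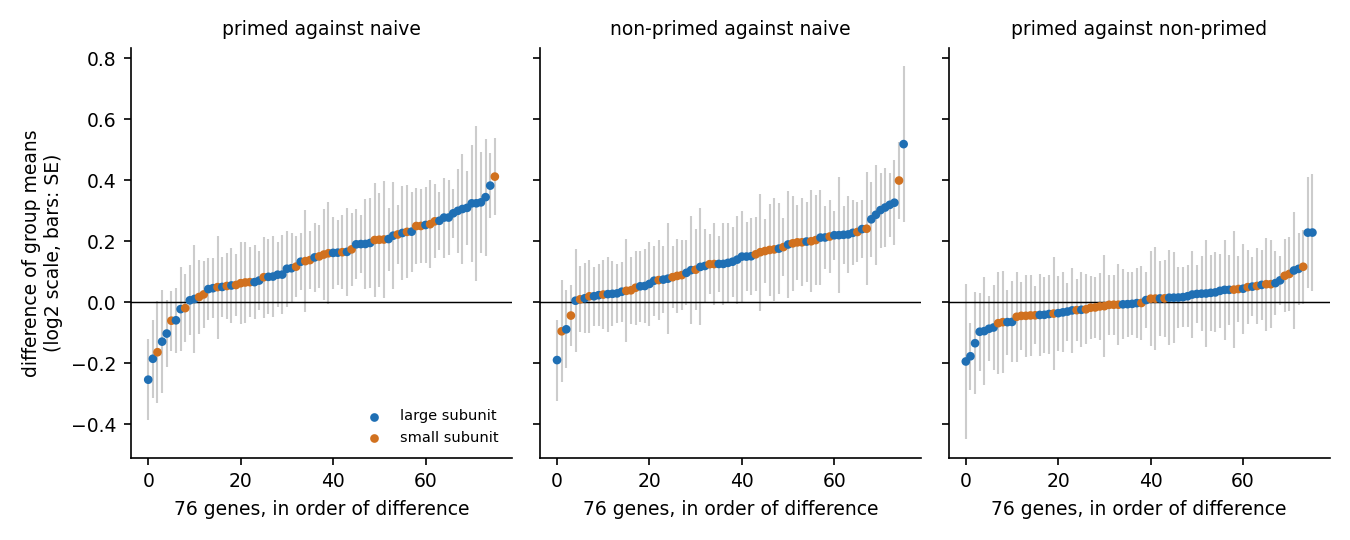
Differences of the tested ribosomal protein genes (log2 scale) for primed against naive, non-primed against naive and primed against non-primed, with large and small subunit genes in different colours. Medians are 0.15, 0.13 and -0.002, and no gene passed limma's test in any of the 3.

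Primed and non-primed cultures did not separate. Of the 76 genes, 37 were higher in primed libraries, and the median difference was -0.002 against 0.0009 over all genes. limma called 0 of the 76, and 0% of all 15623 genes. Of the 76 genes 0 had an unadjusted p below 0.05, the smallest being 0.142, while 197 of all genes did, 0.57% with higher and 0.691% with lower values in primed libraries. Rpl30, Rplp1 and Rplp2 were lower in primed libraries without overlap, where 5.25% of all genes were, and 0 of the 76 were higher without overlap, where 6.31% of all genes were. The largest differences were 0.23 for Rpl35a (SE 0.18) and Rpl26 (SE 0.19) and -0.19 for Rpl39l (SE 0.25), all smaller than 2 standard errors. Rpl39 differed by -0.18 (SE 0.11). The direction of the median changed with the library left out: it was 0.08 without non-primed 2, with 63 of 76 genes higher, and -0.04 without primed 2, with 14 of 77 higher. These libraries were both high and are possibly paired, with a correlation of 0.73 over these genes. Primed 1 and non-primed 3, whose numbers differ, reached 0.61. If primed 2 and non-primed 2 are a pair, leaving out 1 of them leaves the other without its match. The median moved for other libraries too. It was 0.06 without primed 1, with 62 of 76 higher, and -0.03 without non-primed 1 or without non-primed 3.

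Genes that work beside the ribosomal proteins were compared by the same fits, and 0 genes of the following lists passed in any comparison. Translation factors with TOP mRNAs, such as Eef1b2 of the elongation factor that delivers tRNA, leaned the same way as the ribosomal protein genes. Their median difference was 0.09 between primed and naive libraries, with 12 of 18 higher, and 0.18 between non-primed and naive libraries, with 15 of 18 higher. Between primed and non-primed libraries 1 of 18 was higher, with a median of -0.04. Eef1b2 differed from naive libraries by 0.23 in primed (adjusted p = 0.271 by limma) and 0.25 in non-primed libraries (adjusted p = 0.261). The 9 subunit genes outside the name pattern had medians of 0.04 for primed against naive, with 5 of 9 higher, and 0.08 for non-primed against naive, with 7 of 9 higher. Rack1, the scaffold protein of the small subunit among them, differed by 0.27 and 0.30, with all 6 injected libraries above the 3 naive ones. It was the 1 gene of the 9 higher without overlap, where 8.97% of all genes were in primed and 11.6% in non-primed libraries. Rack1 lies on chromosome 11, with a deviation of -0.18 in naive 3.

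The machinery that makes ribosomes had medians close to or below 0. The 30 ribosome biogenesis genes had a median of -0.08 for primed against naive and -0.02 for non-primed against naive, with 10 and 13 higher. The 12 RNA polymerase I genes had medians of 0.004 and 0.04, and the 10 regulators of TOP mRNAs and S6 had -0.02 and -0.05. Among these, Polr1a, the largest subunit of the polymerase that transcribes rRNA, was lower in both injected groups, with no overlap. It differed by -0.28 in primed (adjusted p = 0.202 by limma) and -0.34 in non-primed libraries (adjusted p = 0.157). Of all genes, 8.18% were lower without overlap in primed and 10.3% in non-primed libraries. Larp1, which binds the caps of TOP mRNAs, differed by -0.26 in primed (adjusted p = 0.260) and -0.29 in non-primed libraries (adjusted p = 0.238). Pes1, needed for large-subunit maturation and located on chromosome 11, was 0.31 and 0.26 above naive libraries.

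Translation initiation factors were mixed in direction. The 20 genes had a median of 0.008 for primed against naive and 0.05 for non-primed against naive. Eif4a1, the helicase of the cap-binding complex, differed from naive libraries by 0.31 in primed (adjusted p = 0.170 by limma) and 0.36 in non-primed libraries (adjusted p = 0.140), and it lies on chromosome 11. Eif4ebp2, which blocks the cap-binding factor, differed by -0.55 in primed (adjusted p = 0.168) and -0.58 in non-primed libraries (adjusted p = 0.164). Its paralog Eif4ebp1 went the other way, by 0.44 and 0.40, the highest differences of the 20 genes, with overlapping groups. Eif4ebp1 had a mean rlog of 10.85, against 6.95 for Eif4ebp2. Mitochondrial ribosomal protein genes, which serve a separate ribosome, had medians of 0.03 and 0.02 over 77 genes, and between primed and non-primed libraries 55 of 77 were higher, with a median of 0.03.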

How the data were processed

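The deposited values are regularised logarithms (rlog, log2 scale) of 47729 genes in 9 libraries. Per the submitters' processing notes, the tools were STAR 2.5.4a, cutadapt 2.5, featureCounts from Subread 1.6.1, and DESeq2, with GRCm38 as the genome. Not given in the sources used here: annotation release, strand setting, and rlog settings. The rlog draws values of weakly expressed genes towards their mean, so their differences are understated. Read counts are not used here, so depth is unknown and the precision is that of 3 libraries per group.

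Symbols were matched for 47224 identifiers, and gene types and coordinates came from GENCODE M21. Promoter sequences came from RefSeq. Levels per kilobase subtract log2 of the length of the shortest principal transcript. Copies were found with BLAST+ 2.17.0. Varying genes whose rlog averaged 3 or more were tested with limma 3.58.1 in R 4.3.3, with 1 mean per group, a mean-variance trend, two-sided tests and Benjamini-Hochberg adjustment over 15623 genes. The fit was tested on simulated data. Descriptions were computed with Python 3.11.15 and pandas 2.3.3.

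The members, lists and tests were chosen with earlier results of these data known. Named genes are, per comparison and direction, the 4 with the smallest p-values, then the extremes of level and spread, the paralogs and stalk genes, Rpl5, Rpl11, Rps6 and Rpl22, and from other lists the smallest p-values. Rps7, Rps20, Rps26, Rpl3 and Rpl19 fall outside this rule and were chosen after their values were seen. Eif4ebp1, Prg4, Pdgfrb and Lum were also named after their values were seen.

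The numbers 1 to 3 were checked by correlating deviations of libraries from their group means. Primed and non-primed libraries of the same number correlated at 0.418, 0.608 and 0.100, so they were taken as possibly paired, and naive libraries were not. Primed and non-primed libraries of different numbers correlated at -0.497 to 0.275, the highest being primed 1 with non-primed 3. Naive libraries correlated with injected ones of the same number at -0.160 to 0.151. The value of 0.100 for number 3 lies within both ranges, so the pairing is uncertain. Alternatives were other filters, centred libraries, other variance models, array weights, groups fitted alone, a replicate block and leaving out each library.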

Additional observations from a re-analysis of the deposited data

How the results depend on the processing

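The count of 0 ribosomal protein genes past the threshold held under each left-out library, where 0% to 2.28% of all genes were called. It also held under each alternative except limma's array weights. They called 1 gene for primed against naive, Rpl22 (0.29, adjusted p = 0.0446), and 2 genes for primed against non-primed, Rpl11 (0.16, adjusted p = 0.0427) and Rpl37a (0.17, adjusted p = 0.0456), among 2109 genes in all. The weights were 7.29 for primed 3 and 10.4 for non-primed 1, against 0.470 to 1.65 for the other 4 injected libraries, so that the primed against non-primed calls rest mostly on 1 library per group, and 0.299 for naive 2 and 0.133 for naive 3. A replicate block, which also tied the naive libraries by number, left 0 ribosomal protein genes called. Each number occurs once in each group, so a block cannot change the differences of group means. The medians therefore stayed by design at 0.15, 0.13 and -0.002 for primed against naive, non-primed against naive and primed against non-primed. Over the left-out libraries these medians ranged from 0.0816 to 0.217, from 0.0506 to 0.212 and from -0.0435 to 0.0757, where the pooled SD between replicates is 0.128. The gap between large and small subunit medians ranged from -0.0137 to 0.0379, from -0.0121 to 0.0219 and from -0.0132 to 0.0220. Directions changed 10 times among the named differences. Array weights turned Rplp2 (0.0041), Rps29 (0.028) and Rps21 (0.028) for non-primed against naive, and Rps29 (0.040) and Rpl39 (0.013) for primed against naive. Without naive 3, Rplp2 (0.074), Rps29 (0.12) and Rps21 (0.062) turned for non-primed against naive and Rps29 (0.052) for primed against naive, and without primed 1, Rpl39l (0.019) turned for primed against non-primed. Over the left-out libraries the lowest values of these 5 differences were -0.18 for Rplp2, -0.21 for Rps29 and -0.11 for Rps21 (non-primed against naive), -0.28 for Rps29 (primed against naive) and -0.37 for Rpl39l (primed against non-primed). The causes were not tested. The depth is unknown, an exact test of 3 libraries against 3 cannot go below p = 0.1, and genes with near-identical copies have uncertain levels.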
